A study of Arabidopsis thaliana with 18 samples.

Results

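P21 is an Arabidopsis thaliana line in the Col-0 ecotype that overexpresses the protein kinase gene PINOID (PID). Its first pair of leaves was compared here between 9 and 16 days after stratification (DAS), the stages labelled proliferation and expansion. The comparison used 4 of the 16 libraries with values, P21 replicates 2 and 3 at each day. They were selected by genotype, day and replicate as labelled, and the replicate 1 libraries of P21 were not analysed here.

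The other libraries were the wild type (WT), which carries no transgene, and P10, a second line with the same 35S::PID construct, with 3 replicates each at 9 and at 16 DAS. In both lines the cauliflower mosaic virus 35S promoter, active in most tissues, drives the PID cDNA, and each line is one transformant, so a property of the line cannot be told apart from an effect of PID. All plants were grown on Murashige and Skoog medium with sugar in long days and received no treatment, and whole leaf tissue was extracted. The labels do not say whether the replicates came from separate cultures, so the p-values measure the spread between these samples, which may be technical.

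A leaf of Arabidopsis first grows by cell division and then by cell expansion, and the switch runs from the tip to the base of the blade. As division stops, genes of mitosis and DNA replication are shut down, many cells pass into the endocycle, in which DNA is copied without mitosis, and the plastids take on full photosynthetic function. PID phosphorylates the PIN auxin efflux carriers and so affects the side of the cell on which they sit. Auxin and cytokinin, which act on each other, help to time the exit from division.

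The P21 libraries held 2650951 and 2823100 unique gene reads at 9 DAS and 2713255 and 3824764 at 16 DAS, within the range of 1193042 to 4695692 over all 16 libraries. The 2 replicates of each day correlated at 0.963 in log2 CPM (reads scaled to a common library total), and the first principal component of all libraries, with 55.9% of the variance, separated the days. The 4 P21 libraries carry one second library index at both days, whereas in WT and P10 this index changes between 9 and 16 DAS. In a difference between the changes of P21 and of another line, index and line therefore cannot be told apart at 9 DAS. Leaf mesophyll markers such as CA1, a carbonic anhydrase, were abundant and summed to 54813 and 50768 CPM at 9 DAS and to 82436 and 76790 CPM at 16 DAS. Of 10 markers of the shoot apical meristem, only KNAT1 passed the filter on low counts, at 3.79 and 2.86 CPM at 9 DAS and at 0 in both libraries at 16 DAS (at least 6.13-fold lower), and WUS, CLV3 and CUC1 were at 0 in all 4 libraries. None of 8 inflorescence markers passed the filter, and among 10 root markers RHD6, RSL4, PLT1 and EXPA18 were at 0. Of the root markers 2 passed the filter, SCR among them. The root list summed to 52 and 76 CPM at 9 DAS and to 73 and 100 CPM at 16 DAS. The 10 meristem markers summed to 8 and 8 CPM at 9 DAS and to 0 and 2 CPM at 16 DAS, and their part in the results was not tested.

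Of 16499 genes tested, 3909 changed in P21 from 9 to 16 DAS, which is 23.7%, by edgeR's quasi-likelihood test at an adjusted p below 0.05 and a log2 fold change beyond 0.75. Of these, 2091 were higher at 16 DAS (12.7%) and 1818 lower (11%), and the median change of all genes was -0.02 on the log2 scale. The split between directions depends on the scaling: 53.5% of the calls were higher with TMM factors, 42.8% with upper-quartile factors and 22.3% with library size alone, where the median of all genes lies at -0.41. Values below are CPM on TMM-scaled library sizes, with replicate 2 before replicate 3, and log2 fold changes are 16 against 9 DAS with their SE. Without P21 9 DAS replicate 2, whose column carries another lane label than those of the other 15 libraries, the count fell to 2321, and without 16 DAS replicate 3 to 2751. At 16 DAS, 479 of the called genes were at least 4-fold higher and 588 at least 4-fold lower.

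In WT 5937 genes changed between the same days (36%) and in P10 5115 (31%), with 18.6% higher and 17.3% lower in WT and 16.6% higher and 14.4% lower in P10. Each of these had 3 libraries against 3, so the counts cannot be set directly against that of P21 with 2 against 2. The P21 and WT comparisons share no library. Of the 3909 genes called in P21, 2915 were called in WT in the same direction, which is 74.6% of the P21 calls and 49.1% of the WT calls, 6 were called in the opposite direction and 988 were not called in WT. For P10 the genes called in the same direction came to 2050, or 52.4% of the P21 calls. When the difference between the changes was itself tested, 524 genes differed between P21 and WT (3.18%), 281 with a more positive change in P21 (1.7%) and 243 with a more negative one (1.47%). Against P10, 2100 genes differed (12.7%), 1153 with a more positive change in P21 (6.99%) and 947 with a more negative one (5.74%). The count against WT was 51 without P21 16 DAS replicate 3 and 156 and 152 without 9 DAS replicates 2 and 3, so it rests on single P21 libraries. The plot of changes by process list shows how the called genes were spread over 33 processes.

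**Figure D1:**
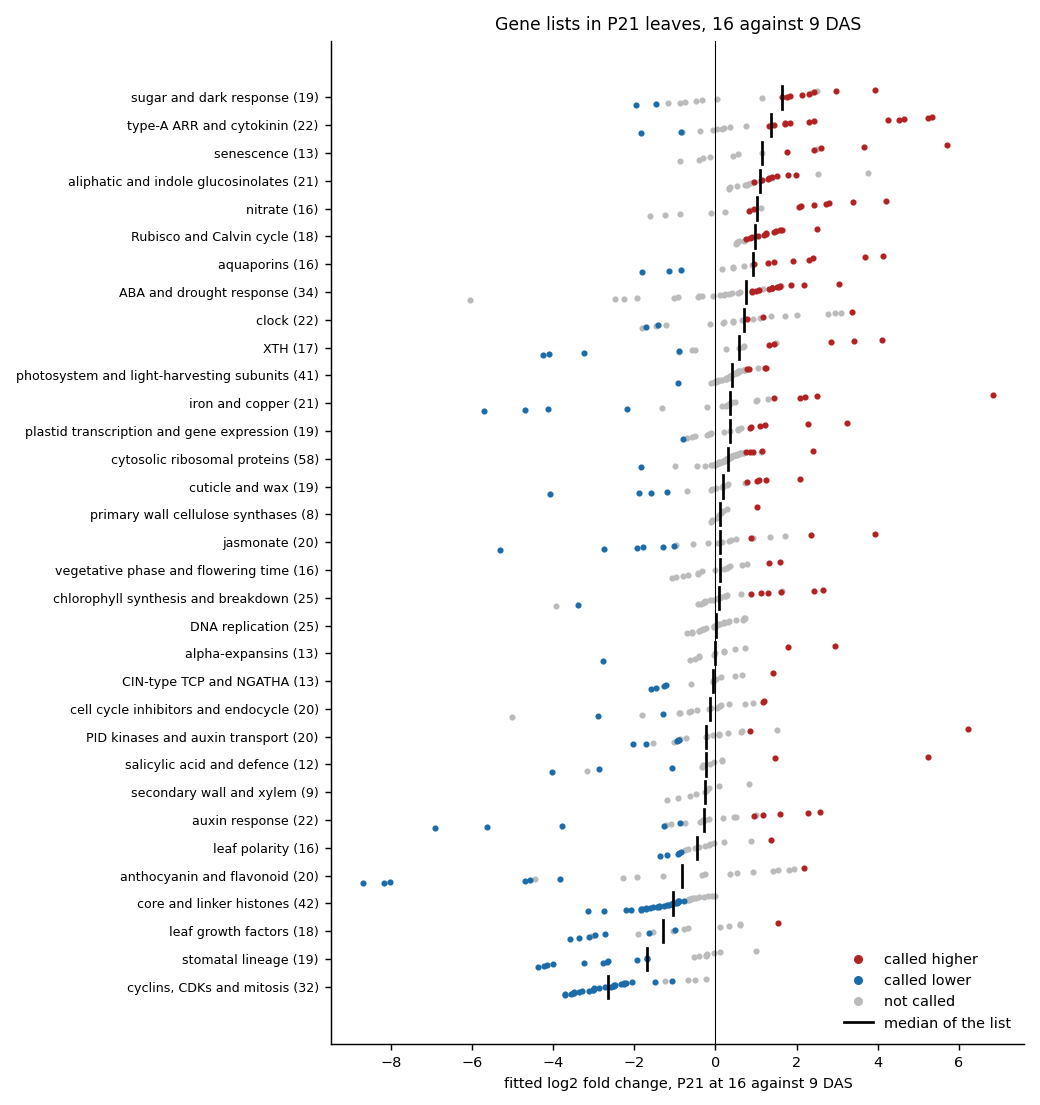
Log2 fold change (horizontal axis, 16 against 9 DAS in P21) of each tested gene in 33 process lists, with the number tested in parentheses; red points were called higher, blue points called lower and grey points not called, and the black bar is the list median. Mitosis genes lie almost wholly to the left (28 of 32 called lower, median -2.65), DNA replication genes lie around 0 (0 of 25 called, median 0.01), and cytokinin genes lie mostly to the right (12 of 22 called higher, median 1.37).

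The PID transcript (AT2G34650, chr2:14589760-14591788, minus strand, TAIR10) was high at both days in P21 and declined with age. It was at 940 and 961 CPM at 9 DAS and at 368 and 631 CPM at 16 DAS, and the days did not overlap (log2 fold change -0.93, SE 0.20, adjusted p = 0.0016). In WT it lay between 4.73 and 5.92 CPM at 9 DAS and between 3.19 and 4.22 CPM at 16 DAS, so every P21 library was far above every WT library. In P10 it moved the other way, from between 446 and 522 CPM to between 748 and 882 CPM (log2 fold change 0.69), and the change in P21 was lower than that in P10 by 1.62 on the log2 scale. Reads of the transgene and of the resident gene cannot be told apart.

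Genes of cell division were the first group examined. Of 32 mitosis genes 28 fell in P21 as the leaf aged, while 1 of 58 genes of cytosolic ribosomal proteins and none of 25 of DNA replication were called lower by the edgeR test. In WT 31 mitosis, 20 ribosomal and 19 replication genes fell, and in P10 32, 28 and 21. The promoters of 6 genes are shown, 2 of each group, chosen because they carry the motif searched for in their group. The motif is not found in all members: PCNA1 and PCNA2 have no match to the E2F motif and CDC20.1 none to AACGG. The sequences are the 250 bases before the gene start in RefSeq's TAIR10.1 annotation, read on the strand of the gene, and for each the motif of its group is in capitals. MCM2 (chr1:16969964-16970213, plus strand) and MCM5 (chr2:3527501-3527750, minus strand) encode subunits of the replicative DNA helicase, and the capitals mark the E2F motif TTTCCCGC, found 14 and 19 bases upstream of the start.
MCM2: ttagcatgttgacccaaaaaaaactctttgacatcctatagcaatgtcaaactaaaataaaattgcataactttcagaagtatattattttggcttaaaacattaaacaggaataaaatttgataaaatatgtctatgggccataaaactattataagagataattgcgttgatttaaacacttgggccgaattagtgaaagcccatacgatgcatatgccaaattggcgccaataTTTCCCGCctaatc
MCM5: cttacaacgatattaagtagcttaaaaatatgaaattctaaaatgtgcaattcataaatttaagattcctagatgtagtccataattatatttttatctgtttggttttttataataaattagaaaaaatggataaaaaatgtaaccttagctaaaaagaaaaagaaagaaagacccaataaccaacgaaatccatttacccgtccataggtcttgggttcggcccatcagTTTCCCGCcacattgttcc

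PLE (chr5:20964538-20964787, minus strand) encodes a microtubule-bundling protein of the dividing cell's phragmoplast and CYCB2;2 (chr4:16901346-16901595, plus strand) a mitotic cyclin. Here the capitals mark the core AACGG, or its complement CCGTT, of the mitosis-specific activator element, to which MYB3R factors bind.
PLE: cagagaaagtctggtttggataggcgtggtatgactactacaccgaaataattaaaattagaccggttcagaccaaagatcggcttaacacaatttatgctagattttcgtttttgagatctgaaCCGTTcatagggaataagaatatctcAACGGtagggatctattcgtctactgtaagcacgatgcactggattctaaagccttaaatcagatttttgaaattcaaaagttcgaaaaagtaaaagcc
CYCB2;2: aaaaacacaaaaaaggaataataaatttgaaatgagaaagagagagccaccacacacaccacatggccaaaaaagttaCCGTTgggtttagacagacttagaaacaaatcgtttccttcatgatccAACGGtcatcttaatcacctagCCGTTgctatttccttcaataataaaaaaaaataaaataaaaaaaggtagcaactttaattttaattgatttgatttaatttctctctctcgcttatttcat

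AT1G01100 (chr1:51211-51460, minus strand) and AT3G16780 (chr3:5708576-5708825, plus strand) encode cytosolic ribosomal proteins. The capitals mark site II, TGGGCC or TGGGCT on either strand, an element to which TCP factors bind.
AT1G01100: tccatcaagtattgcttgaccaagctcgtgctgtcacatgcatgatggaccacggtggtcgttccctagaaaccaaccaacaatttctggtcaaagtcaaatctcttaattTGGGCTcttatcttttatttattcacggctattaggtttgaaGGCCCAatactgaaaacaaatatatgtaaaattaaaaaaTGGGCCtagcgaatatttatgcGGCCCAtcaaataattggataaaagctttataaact
AT3G16780: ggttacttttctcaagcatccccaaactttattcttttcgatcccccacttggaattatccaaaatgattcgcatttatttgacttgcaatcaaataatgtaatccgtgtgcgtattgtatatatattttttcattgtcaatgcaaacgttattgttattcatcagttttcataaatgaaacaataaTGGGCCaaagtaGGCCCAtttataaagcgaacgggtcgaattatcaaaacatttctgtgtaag

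Searched on both strands, an E2F motif (TTTCCCGC, TTTGGCGC, TTTCGCGC or TTTGCCGC) was present in 9 of 26 promoters of DNA replication genes (34.6%), in 2.9% of those of mitosis genes and in 1.39% of 28008 promoters of the same length. AACGG was present in 55.9% of 34 mitosis promoters and in 53.2% of those of histone genes, against 20.7% of all. Site II was present in 61.2% of the promoters of ribosomal protein genes and in 50% of those of DNA replication genes, against 19.2% of all, and the telo box AAACCCTA in 23.9% of the ribosomal ones against 4.5%. A match is a description of these letters and is not shown to be bound.

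Of 32 genes for cyclins, cyclin-dependent kinases and mitosis tested, 28 fell and none rose in P21, with a median log2 fold change of -2.65, and in 31 of them both 16 DAS libraries lay below both 9 DAS libraries, an order found in 33.6% of all genes (32.8% had the reverse order). Their summed level was 663 and 687 CPM at 9 DAS and 159 and 165 CPM at 16 DAS. PLE was at 16.5 and 22.9 CPM at 9 DAS and at 2.19 and 0.922 CPM at 16 DAS (log2 fold change -3.71 with an SE of 0.63, adjusted p = 0.00036). CDC20.1, an activator of the anaphase-promoting complex, fell from 62.4 and 50.2 CPM to 2.63 and 5.53 CPM (log2 fold change -3.70, SE 0.39, adjusted p = 2.2e-06). The days did not overlap in either gene, and the same held for CYCB2;2, at 5.86 and 12.1 CPM at 9 DAS and 0.878 and 0.615 CPM at 16 DAS (log2 fold change -3.55 with an SE of 0.57, adjusted p = 0.00012).

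The cytokinesis syntaxin KN was at 64.8 and 63.2 CPM at 9 DAS and at 7.9 and 7.99 CPM at 16 DAS, and the mitotic kinase AUR2 at 15.8 and 17.5 CPM and then 1.76 and 1.23 CPM. Their log2 fold changes were -3.00 and -3.48, and both fell. The members not called were MYB3R4, an activator of mitotic genes (log2 fold change -1.23, adjusted p = 0.05), the D-type cyclin CYCD3;2 (-0.68), and CYCA3;2 (-0.51) and CYCA3;1 (-0.23). In WT 31 of 32 and in P10 32 of 32 mitosis genes fell, with medians of -3.60 and -3.37, and the difference between the changes of P21 and WT had a median of 0.74 beside -0.01 for all genes. At 16 DAS the summed level in P21 lay within the WT range of 154 to 171 CPM, whereas at 9 DAS it lay below the WT range of 962 to 1159 CPM. Without P21 9 DAS replicate 2 the median was -2.57, and without 16 DAS replicate 3 it was -2.95. In whole leaves, fewer cells of a type and less RNA per cell cannot be told apart.

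None of 25 DNA replication genes changed in P21 by the edgeR test, and none reached an unadjusted p below 0.05. Their fitted log2 fold changes lay between -0.70 and 0.72 with a median of 0.01, and 13 were above and 12 below 0. MCM2 was at 14.5 and 13.3 CPM at 9 DAS and at 9.22 and 17.2 CPM at 16 DAS, so the days overlapped (log2 fold change -0.04, SE 0.35, adjusted p = 0.95). In WT the same gene lay between 19.7 and 22.2 CPM at 9 DAS and between 4.46 and 9.18 CPM at 16 DAS (log2 fold change -1.55), without overlap. MCM5 had the lowest fitted change of the list, with 16.2 and 14.3 CPM at 9 DAS and 6.58 and 11.7 CPM at 16 DAS (log2 fold change -0.70). The median SE over the list was 0.37. DESeq2 called 0 of the 25 as well, and limma on log2(RPKM + 1) called 1 lower, with a median of -0.30 for the list and -0.33 for all genes.

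In WT 19 of the 25 replication genes fell, with a median of -1.46, and in P10 21, with a median of -2.05. The difference between the changes passed the test for 3 of them against WT. PCNA1, the sliding clamp of the replication fork, was at 10.7 and 8.57 CPM in P21 at 9 DAS and at 7.46 and 11.1 CPM at 16 DAS, while in WT it went from between 22.7 and 25.7 CPM to between 3.73 and 6.7 CPM (difference 2.12 on the log2 scale, adjusted p = 0.013). PCNA2 was at 13.4 and 15.2 CPM and then at 17.6 and 15.7 CPM in P21, and in WT it went from between 29.1 and 51.5 CPM to between 11.2 and 11.5 CPM (difference 2.05, adjusted p = 0.0036). P21 thus lay below WT at 9 DAS and above it at 16 DAS in both clamp genes. The helicase gene MCM4 was at 14.5 and 11.1 CPM and then at 8.34 and 12 CPM, against 22.7 to 27.5 CPM and then 3.73 to 6.45 CPM in WT (difference 1.77, adjusted p = 0.02).

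Over the whole list the difference from WT had a median of 1.47, and that from P10 a median of 1.69 with 12 genes past the test, all with the more positive change in P21. The summed level was 383 and 369 CPM at 9 DAS and 325 and 393 CPM at 16 DAS in P21, against 495 to 569 CPM and then 265 to 322 CPM in WT, and 514 to 593 CPM and then 227 to 322 CPM in P10. Both P21 libraries at 16 DAS therefore lay above all WT and P10 libraries of that day. Without P21 16 DAS replicate 3 the list median was -0.36, and 1 gene differed from WT and 5 from P10. Tested against a log2 change of 0.75 instead of 0, 0 of the 25 genes differed from WT and 6 from P10. With library size alone the median was -0.37 beside -0.41 for all genes, and 2 members were called lower.

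Cytosolic ribosomal proteins form the small and large subunits of the ribosome outside the organelles. The list was taken from product names that give a 40S or 60S ribosomal protein, or an L or S number ending in e, so it holds part of the family, and spellings were added after the table was seen. Its genes were called higher in 5 of 58 genes and lower in 1 in P21, with a median of 0.31, and 49 of the 58 had a fitted change above 0. The median was -0.08 with library size alone, where that of all genes was -0.41 and 2 genes were called higher and 2 lower, so its sign depends on the scaling. AT3G16780 was at 38.6 and 51.1 CPM at 9 DAS and at 75 and 96.2 CPM at 16 DAS (log2 fold change 0.93 with an SE of 0.20, adjusted p = 0.0019). In WT it went from between 69.9 and 92.3 CPM to between 60.8 and 68.6 CPM, and the changes differed by 1.32 (adjusted p = 0.011). AT1G01100 was at 153 and 173 CPM and then at 144 and 202 CPM in P21, against 276 to 410 CPM and then 133 to 164 CPM in WT (difference 1.26, adjusted p = 0.02).

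In WT 20 of the 58 genes fell and none rose, with a median of -0.65, and in P10 28 fell and 2 rose, with a median of -0.74. The change was more positive in P21 than in WT for 30 of 58 genes and than in P10 for 40, and more negative for none. Over all genes these shares were 1.7% and 6.99%. Tested against a log2 change of 0.75 instead of 0, 0 of the 58 differed from WT and 3 from P10. The 30 became 1 without P21 16 DAS replicate 3, 4 without 9 DAS replicate 2, 12 without 9 DAS replicate 3 and 16 without WT 16 DAS replicate 3, while the median difference of 0.95 became 0.81, 0.92, 1.13 and 0.95. The summed level of the list was 6472 and 7413 CPM at 9 DAS in P21, below the WT range of 10709 to 14192 CPM, and 7618 and 9907 CPM at 16 DAS, where the WT range was 6970 to 8109 CPM. The 2 P21 libraries at 16 DAS stood apart from each other, and only replicate 3 lay above WT.

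Histone genes lay between these groups. Of 42 tested, 27 fell and none rose in P21 (median -1.06), against 38 that fell in WT (median -1.82), and 12 had a more positive and 1 a more negative change in P21 than in WT. The 12 became 2 without P21 16 DAS replicate 3, 5 without 16 DAS replicate 2, 3 and 2 without 9 DAS replicates 2 and 3, 3 and 7 without WT 16 DAS replicates 1 and 2, 4 and 6 without WT 9 DAS replicates 1 and 3, and 8 with library size alone. With a replicate block 6 had a more positive and 2 a more negative change. Tested against a log2 change of 0.75 instead of 0, none differed from WT. The median difference of 0.76 lay between 0.68 and 0.87 over the libraries left out. Their summed level was 3643 and 3676 CPM at 9 DAS and 1824 and 2022 CPM at 16 DAS. Many histone genes are near-identical copies, so reads may be divided among them. HIS1-3, a linker histone known from drought-stressed plants, was at 12.7 and 15.2 CPM and then at 3.95 and 0.615 CPM (log2 fold change -2.76) and was the gene with the more negative change (difference from WT -3.15). The centromeric histone HTR12 was at 4.48 and 5.08 CPM and then at 2.19 and 2.15 CPM (log2 fold change -1.12, adjusted p = 0.19).

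**Figure D2:**
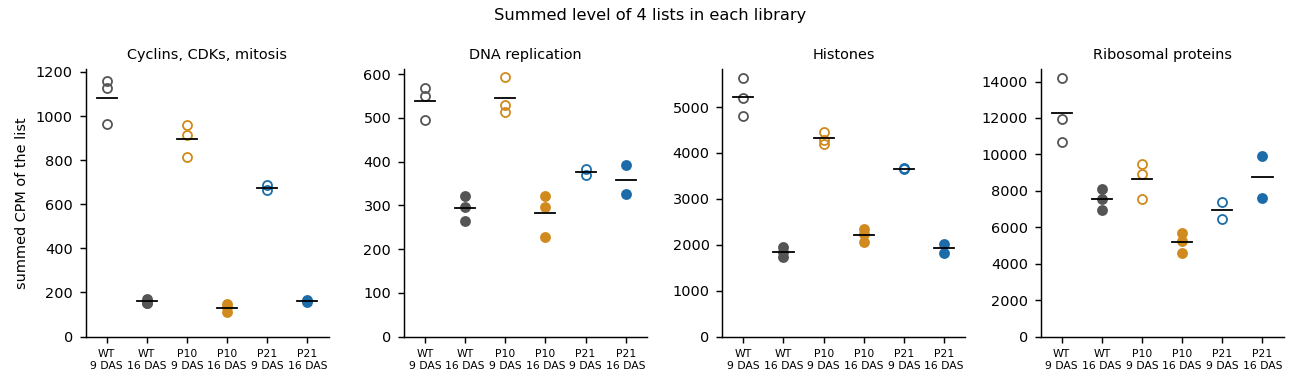
Summed CPM (vertical axis, from 0) of mitosis, DNA replication, histone and cytosolic ribosomal protein genes in each library of WT, P10 and P21, with open points at 9 DAS, filled points at 16 DAS and bars at the group mean. In P21 mitosis went from 663 and 687 to 159 and 165 CPM while DNA replication stayed between 325 and 393 CPM over both days, and in WT both sums fell without overlap between the days.

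Among 20 genes listed under cell cycle inhibitors and endocycle, 2 rose and 2 fell in P21. That is 10% in each direction, beside 12.7% higher and 11% lower over all genes. RBR1, the retinoblastoma protein, which restrains entry into DNA replication, was at 25.5 and 23.8 CPM and then at 60.1 and 51 CPM (log2 fold change 1.17, adjusted p = 0.0007). SMR1, a kinase inhibitor of the SIAMESE family, was at 25.5 and 20.3 CPM and then at 58.4 and 47.3 CPM (log2 fold change 1.2). The 2 that fell were CCS52B, an activator of the anaphase-promoting complex in mitosis, at 39.3 and 27.9 CPM and then 2.19 and 6.15 CPM (log2 fold change -2.91), and the inhibitor KRP2, at 20 and 11.1 CPM and then 3.95 and 8.3 CPM (-1.28). CCS52A1, which acts in the endocycle, had a log2 fold change of 0.33 and was not called.

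Of 18 leaf growth factors tested, which act in the dividing leaf, 7 fell, 1 rose and 10 were not called in P21 (median -1.30), and in WT 12 fell and 2 rose (median -2.71). GRF3, a growth-regulating transcription factor, was at 36.5 and 21 CPM at 9 DAS and at 2.19 and 2.46 CPM at 16 DAS (log2 fold change -3.58, adjusted p = 0.0054). ANT, which prolongs growth of organs, was at 22.4 and 21.9 CPM and then at 4.39 and 9.22 CPM (log2 fold change -1.64). It fell less than in WT (-3.2), with a difference of 1.53 (adjusted p = 0.044). The coactivator GIF1 was at 4.82 and 4.76 CPM and then at 1.32 and 4.3 CPM in P21 and was not called, whereas in WT it went from between 22.7 and 30 CPM to between 2.87 and 5.96 CPM (difference 2.27, adjusted p = 0.042). The gene that rose was BB, a ubiquitin ligase that limits organ growth, at 7.92 and 11.1 CPM and then 28.5 and 27.7 CPM (log2 fold change 1.55).

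NGA1, a NGATHA factor of leaf margins, fell from 42.7 and 28.9 CPM to 12.7 and 11.1 CPM (log2 fold change -1.59, adjusted p = 0.00024), while in WT its fitted change was -0.15 (difference -1.44, adjusted p = 0.032). CIN-type TCP and NGATHA factors promote the end of division in leaves. Of 13 genes tested in their list, which also holds TCP14 and TCP15, 4 fell and 1 rose. TCP3 (log2 fold change -1.46) and TCP24 (-1.27) fell, TCP13 was the gene that rose, at 12.4 and 15.2 CPM and then 42.6 and 31.7 CPM (1.41), and TCP4 had a change of 0.01. Of 16 leaf polarity genes 5 fell and 1 rose, among them KAN1 (-1.38), which specifies the lower side, and YAB2 (-0.92). KAN3 rose (1.37), and PHB, which specifies the upper side, had a change of -0.14 and was not called.

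Genes of the stomatal lineage, the dividing cells of the epidermis that give rise to guard cells, fell in 11 of 19 cases and rose in none (median -1.69), close to WT with 12 lower and 1 higher (median -1.93). EPF2, a secreted peptide that limits entry into the lineage, was at 14.1 and 10.2 CPM at 9 DAS and at 0.439 and 0.615 CPM at 16 DAS (log2 fold change -4.37, adjusted p = 1.1e-05). The polarity proteins POLAR (-4.23) and BASL (-4.16) of the asymmetric division also fell. SPCH, which starts the lineage, was at 6.89 and 6.03 CPM and then at 1.76 and 2.15 CPM (log2 fold change -1.68, adjusted p = 0.015). FAMA, which acts in the last step of guard cell formation, had a change of -0.23, and MYB88 one of 1.00 (adjusted p = 0.051). Of 7 guard cell markers 1 rose, the proton pump OST2 (0.84).

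The genes with the largest changes, 12 in each direction among those with at least 50 reads on average and no overlap between the days, came from few of these lists. The largest rise was HSP70 (AT3G12580), a heat shock chaperone, at 2.41 and 1.9 CPM at 9 DAS and at 117 and 162 CPM at 16 DAS (log2 fold change 6.0 with an SE of 1.11, adjusted p = 0.0025). It was followed by the late embryogenesis abundant gene LEA3 (AT1G02820), at 1.03 and 9.84 CPM and then 359 and 301 CPM (5.88, SE 0.80, adjusted p = 0.00036). The BTB and TAZ domain gene BT1 (AT5G63160) was at 7.92 and 5.71 CPM and then at 444 and 263 CPM (log2 fold change 5.69, SE 0.39, adjusted p = 6.9e-08). All 3 rose in WT too, with log2 fold changes of 3.95, 6.42 and 4.90.

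NRT1.5, a nitrate transporter of the vasculature, was at 0.689 and 2.22 CPM and then at 63.6 and 64.3 CPM (log2 fold change 5.39, SE 0.55), and AAP4, an amino acid permease, at 2.07 and 2.22 CPM and then at 61 and 59.9 CPM (4.78, SE 0.35). NEET, an iron-sulphur protein gene, was at 3.79 and 2.22 CPM and then at 145 and 96.5 CPM (5.31, SE 1.09). These 3 also rose in WT. AT1G67865, an uncharacterised gene, was at 5.86 and 2.86 CPM and then at 221 and 146 CPM (log2 fold change 5.39, SE 0.35), and rose less than in WT, where it went from between 0.473 and 1.48 CPM to between 395 and 463 CPM (difference -3.11, adjusted p = 0.0097). The remaining rises were cPT4, AT5G18600, AT2G27420, AT3G24460 and AT2G05540, with log2 fold changes between 4.80 and 5.72.

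AT2G05540, a glycine-rich protein gene (chr2:2033156-2034217, plus strand, TAIR10), stood apart from these because it did not rise in the other genotypes. In P21 it was at 4.48 and 3.81 CPM at 9 DAS and at 126 and 121 CPM at 16 DAS (log2 fold change 4.88 with an SE of 0.31, adjusted p = 2e-09). In WT it lay between 72.3 and 104 CPM and then between 48.4 and 67.1 CPM, and in P10 between 14.9 and 25 CPM and then between 3.57 and 7.39 CPM. The P21 change exceeded that of WT by 5.44 (SE 0.37, adjusted p = 2.5e-08), and at 9 DAS both P21 libraries lay below all those of WT and P10.

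Of the 12 largest falls, 4 were genes of anthocyanin synthesis. LDOX, leucoanthocyanidin dioxygenase, was at 122 and 365 CPM at 9 DAS and at 0.439 and 0.615 CPM at 16 DAS (log2 fold change -8.69 with an SE of 1.37, adjusted p = 0.00099). DFR, dihydroflavonol reductase, was at 186 and 410 CPM and then at 1.76 and 0.615 CPM (-8.03, SE 1.28, adjusted p = 0.0011). UF3GT, an anthocyanin glycosyltransferase, was at 35.8 and 95.2 CPM and then at 0.439 and 0 CPM, and the acyltransferase AT5MAT at 21.4 and 59.4 CPM and then at 0.439 and 0.615 CPM. None of the 4 was called lower in P10, and LDOX lay there between 53 and 228 CPM and then between 111 and 268 CPM. In WT the levels at 9 DAS were below those of P21, with LDOX between 20.7 and 70.1 CPM, and fell to between 0 and 0.319 CPM.

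The other large falls included PEL3, an acyltransferase that affects the cuticle, at 111 and 127 CPM and then 1.76 and 1.84 CPM (log2 fold change -6.0, SE 0.28, adjusted p = 2.3e-11), and the pectin methylesterase PME5, at 382 and 304 CPM and then 4.39 and 6.46 CPM (-5.94, SE 0.34). LTL1, a GDSL lipase, was at 288 and 176 CPM and then at 7.46 and 2.77 CPM (-5.57), and VSP2, a vegetative storage protein, at 53.4 and 49.8 CPM and then at 0.878 and 1.54 CPM (-5.30). All 4 fell in WT and P10 too. The remaining 4, AT4G22485, AT2G33850, AT3G05727 and AT4G29030, had log2 fold changes between -7.59 and -5.64.

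**Figure D3:**
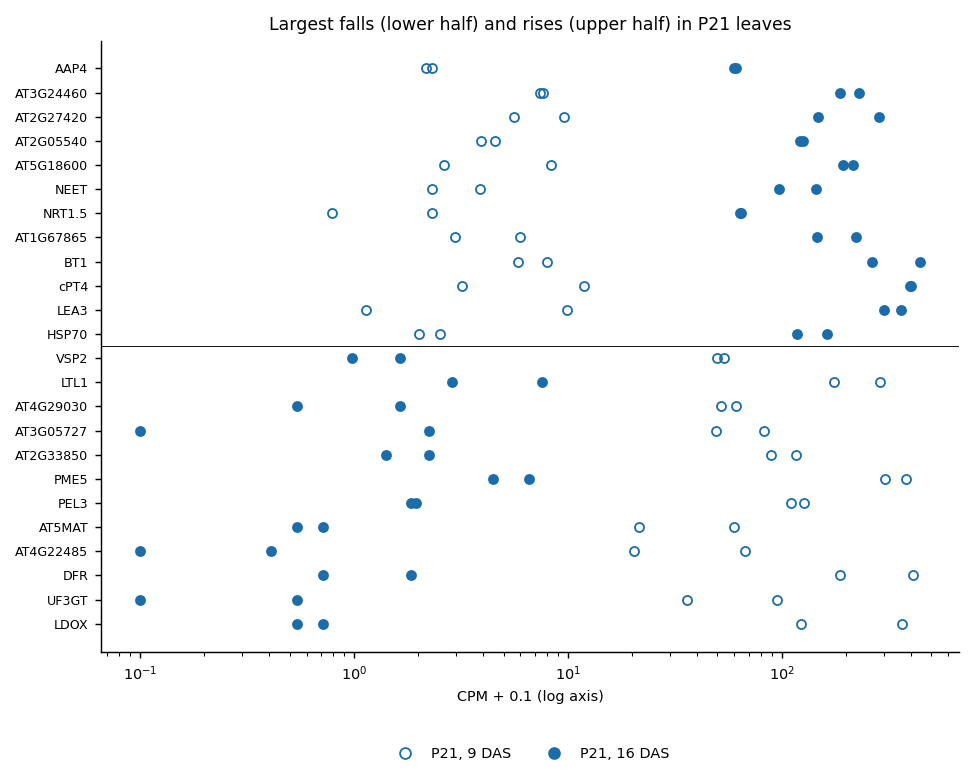
CPM plus 0.1 (horizontal log axis) in each of the 4 P21 libraries for the 12 genes with the largest rises (above the line) and the 12 with the largest falls (below the line), with open points at 9 DAS and filled points at 16 DAS. HSP70 moved from 2.41 and 1.9 to 117 and 162 CPM and LDOX from 122 and 365 to 0.439 and 0.615 CPM. Only called genes without overlap between the days were eligible, so the open and filled points are apart by choice of the genes.

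Genes that act on the cell wall were divided. Of 17 xyloglucan endotransglucosylase/hydrolase (XTH) genes, which cut and rejoin wall polymers, 5 rose and 4 fell. XTH9 was at 571 and 540 CPM at 9 DAS and at 25 and 32.9 CPM at 16 DAS (log2 fold change -4.25 with an SE of 0.27, adjusted p = 2.1e-09), whereas XTH31 was at 11 and 10.5 CPM and then at 172 and 199 CPM (4.1, adjusted p = 1.2e-06). XTH15 (-4.1) and XTH16 (-3.25) fell with the former, and XTH32 (2.84) and XTH19 (3.42) rose with the latter. Of 13 alpha-expansins, which loosen the wall, 2 rose and 1 fell. EXPA1 rose from 45.5 and 36.8 CPM to 247 and 388 CPM (log2 fold change 2.95, adjusted p = 0.00036) and EXPA11 rose as well (1.80), and EXPA16 fell from 29.6 and 30.2 CPM to 4.39 and 4.3 CPM (-2.77).

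Of 16 aquaporins, the water channels of plasma membrane and vacuole, 8 rose and 3 fell (median 0.91), against 9 and 3 in WT (median 0.99). PIP1;1 was at 184 and 210 CPM and then at 1024 and 927 CPM (log2 fold change 2.31, adjusted p = 3e-07), PIP2;1 at 630 and 931 CPM and then at 3191 and 2682 CPM (1.91), and the vacuolar TIP2;2 at 12.4 and 24.1 CPM and then at 394 and 252 CPM (4.13). In all 3 the days were far apart. PIP2;2 (2.41) and PIP2;3 (3.70) are near-identical copies and their division of reads is uncertain. PIP2;7 was at 778 and 818 CPM and then at 452 and 432 CPM (-0.85), and PIP2;8 (-1.82) and PIP2;5 (-1.14) also fell. Of 8 primary wall cellulose synthase genes only CESA5 rose (1.04), and of 9 secondary wall and xylem genes none was called by edgeR or DESeq2 and 2 were called lower by limma, with 2 at an unadjusted p below 0.05 in edgeR, 1 in each direction. Of 19 cuticle and wax genes 5 rose, with KCS1 (2.07) and CER6 (1.25) of wax chain elongation among them, and 4 fell, with CYP86A4 of cutin synthesis (-4.08) and CER1 of alkane formation (-1.59).

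Photosynthesis genes were called higher more often in the Calvin cycle list than in the photosystem list, a difference that was not tested. Of 18 Rubisco and Calvin cycle genes 12 rose and none fell (median 0.98), against 14 in WT (1.15) and 7 in P10 (0.56). RCA, Rubisco activase, was at 6487 and 8443 CPM at 9 DAS and at 21133 and 19243 CPM at 16 DAS (log2 fold change 1.44, adjusted p = 0.01), and the aldolase FBA1 at 935 and 1620 CPM and then at 4040 and 3894 CPM (1.63). RBCS1A, the main small subunit of Rubisco, was at 19786 and 18709 CPM and then at 27685 and 27219 CPM (0.51, adjusted p = 0.033), under the fold change threshold. RBCS1B, one of 3 near-identical copies, was at 518 and 707 CPM and then at 3274 and 3667 CPM (2.5).

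Of 41 photosystem and light-harvesting genes 4 rose and 1 fell in P21 (median 0.40), 7 rose and 2 fell in WT (0.40), and 1 rose and 9 fell in P10 (-0.56). The share called higher in P21 was 9.76%, beside 12.7% of all genes. At an unadjusted p below 0.05, 21 were higher and 1 lower, and 39.1% of all genes passed that level in either direction. The 4 became 13 without P21 9 DAS replicate 2 (median 0.61) and 1 without 9 DAS replicate 3 (median 0.22), so the count rests on single libraries. With library size alone the P21 median was 0.01. The change was more positive in P21 than in P10 for 22 of the 41. PSAF, a photosystem I subunit, was at 2079 and 1586 CPM and then at 4499 and 4016 CPM (1.22), and PSAN rose by a like amount (1.25). The gene that fell was LHCB1.2, at 13925 and 8912 CPM and then 6398 and 5586 CPM (-0.93), whose reads may be shared with its near-identical copies.

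Of 25 genes of chlorophyll synthesis and breakdown 6 rose and 1 fell. HEMA1, which makes the first committed precursor, was at 168 and 187 CPM and then at 1194 and 1019 CPM (log2 fold change 2.64, adjusted p = 0.017), and CHLH, a magnesium chelatase subunit, at 1744 and 2438 CPM and then at 6730 and 6094 CPM (1.62). PORB, one of the protochlorophyllide oxidoreductases, was at 1313 and 610 CPM and then at 62.8 and 119 CPM (-3.39, adjusted p = 0.027). Among 19 genes of plastid gene expression 6 rose and 1 fell. The sigma factors SIG5, at 14.8 and 34.9 CPM and then 263 and 208 CPM (3.23), and SIG1, at 63 and 87.6 CPM and then 388 and 352 CPM (2.29), rose, as did the greening factor GLK1, at 111 and 143 CPM and then 302 and 291 CPM (1.22).

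Some senescence markers were higher at 16 DAS. Of 13 tested 5 rose and none fell (median 1.14), against 5 and 2 in WT (1.51) and 6 and 3 in P10 (0.74). The change in P21 differed from that in WT for none of the 13. The transcription factor NAP was at 2.76 and 4.13 CPM at 9 DAS and at 56.2 and 34.1 CPM at 16 DAS (log2 fold change 3.67, adjusted p = 0.00059), and SAG21 at 6.2 and 6.67 CPM and then at 41.2 and 37.5 CPM (2.60). ORE1, another transcription factor of leaf ageing, was at 0 in both libraries at 9 DAS and at 3.51 and 1.54 CPM at 16 DAS, at least 5.09-fold higher against a floor of 3 reads over the 2 libraries of a day. SAG12, the protease taken as a late marker, was at 0 in all 4 libraries.

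Of 22 cytokinin genes tested, 12 rose and 2 fell in P21 (median 1.37), against 11 and 3 in WT (0.61) and 6 and 4 in P10 (0.05). Cytokinin induces the type-A response regulators (ARR), which damp its signalling, and ARR5, ARR6 and ARR15 among them were near 0 at 9 DAS. ARR5 was at 0.689 and 0 CPM at 9 DAS and at 16.2 and 12.6 CPM at 16 DAS (log2 fold change 5.25 with an SE of 0.88, adjusted p = 0.00018). ARR6 was at 1.03 and 0.635 CPM and then at 43.4 and 28 CPM (5.34, SE 0.76, adjusted p = 0.00013), and ARR15 at 1.03 and 0.317 CPM and then at 20.6 and 15.4 CPM (4.66, SE 0.58, adjusted p = 7.7e-06). The days lay far apart in all 3, and their fitted changes in WT were 1.60, 2.24 and 1.95 and in P10 -0.79, 1.2 and -1.49.

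In 2 cytokinin genes, ARR7 and AHK4, the change differed from that in WT by the test, and in 0 without P21 9 DAS replicate 2, 9 DAS replicate 3 or 16 DAS replicate 3. None differed when tested against a log2 change of 0.75 instead of 0. ARR7 is a type-A gene. It was at 3.45 and 3.49 CPM in P21 at 9 DAS and at 75.5 and 60.3 CPM at 16 DAS (log2 fold change 4.27 with an SE of 0.56, adjusted p = 8.3e-05), while WT lay between 18.8 and 27.4 CPM and then between 39.5 and 53.9 CPM (difference 3.3, adjusted p = 0.020). P21 thus was below WT at 9 DAS and above it at 16 DAS. ARR4 was at 22.7 and 29.2 CPM and then at 156 and 126 CPM (2.43), and ARR9 (2.30) and ARR8 (1.71) rose too. The cytokinin receptor AHK4 was at 5.86 and 6.35 CPM and then at 21.1 and 23.1 CPM in P21 (1.85, adjusted p = 0.0011) with a fitted change of -0.37 in WT (difference 2.22, adjusted p = 0.017).

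IPT3, an isopentenyltransferase of cytokinin synthesis, was at 0.689 and 0.635 CPM and then at 13.6 and 18.8 CPM (log2 fold change 4.53), and rose in WT as well (7.16). The cytokinin oxidase CKX7 (1.72) and the glucosyltransferase UGT76C2 (1.44), which remove active cytokinin, rose. The 2 genes that fell were LOG8, of a family that releases active cytokinin, at 97.2 and 93.7 CPM and then 25.5 and 27.7 CPM (-1.84, adjusted p = 6.1e-06), and the receptor AHK2 (-0.84). The change was more positive in P21 than in P10 for 8 of the 22 genes.

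**Figure D4:**
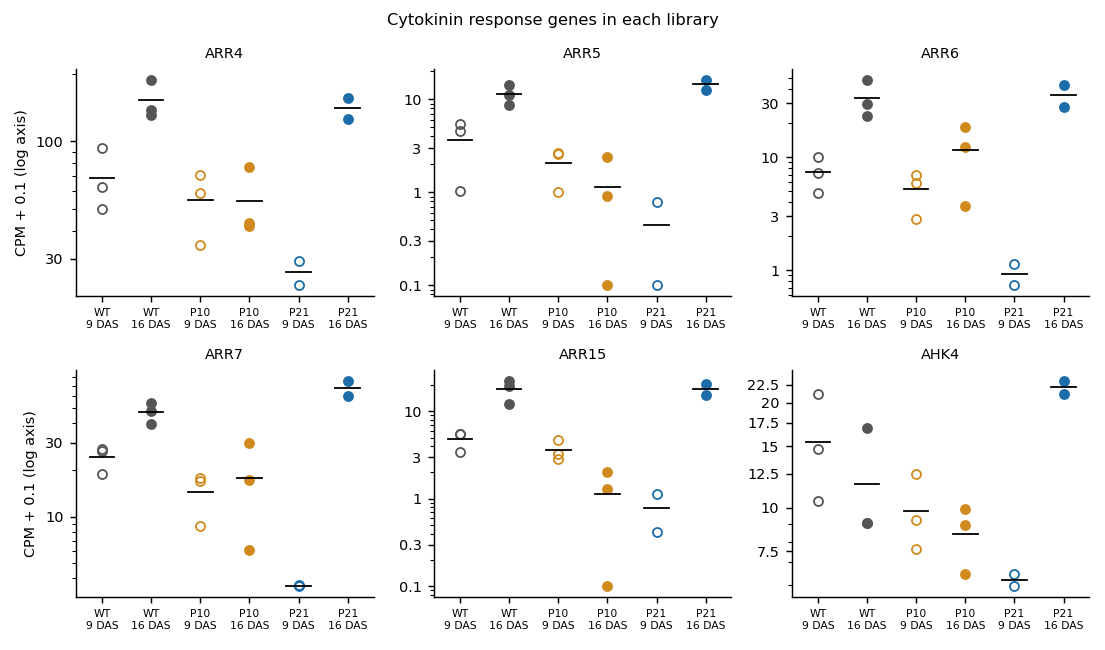
CPM plus 0.1 (vertical log axis) of the type-A response regulators ARR4, ARR5, ARR6, ARR7 and ARR15 and of the receptor AHK4 in each library of WT, P10 and P21, with open points at 9 DAS, filled points at 16 DAS and bars at the group mean. In P21 every gene shown was higher in both 16 DAS libraries than in both 9 DAS libraries, ARR7 from 3.45 and 3.49 to 75.5 and 60.3 CPM, while its WT points lie between 18.8 and 53.9 CPM.

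Auxin genes went both ways. Of 22 auxin response genes 5 rose and 5 fell (median -0.28). The repressor gene IAA1 was at 5.86 and 7.62 CPM at 9 DAS and at 38.6 and 42.7 CPM at 16 DAS (log2 fold change 2.58, adjusted p = 2.5e-06), and IAA17 (2.29) and IAA14 (1.59) rose with it. GH3.3, whose product couples auxin to amino acids, was at 6.55 and 4.76 CPM and then at 0 in both libraries, at least 10.4-fold lower, and GH3.2 was at 2.76 and 1.9 CPM and then at 0, at least 4.3-fold lower. IAA29 fell too (-3.78). Of 20 genes for PID-type kinases and auxin transport, PID among them, 5 fell and 2 rose. The influx carrier LAX2 (log2 fold change -1.72) and the efflux carrier PIN7 (-0.95) were among those that fell.

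Of 34 abscisic acid (ABA) and drought response genes tested, 14 rose and none fell in P21 by the edgeR test (median 0.75), with 1 lower at an unadjusted p below 0.05, whereas in WT 22 rose (median 2.22) and in P10 30 rose (median 3.61). The 14 became 5 without P21 9 DAS replicate 2, 7 without 16 DAS replicate 2 and 6 without 16 DAS replicate 3, with a median between 0.45 and 1.34 over the P21 libraries left out. With library size alone 7 rose. A fit of the P21 libraries alone called 11 higher and 2 lower. The change was more negative in P21 than in P10 for 24 of the 34 genes, and than in WT for 5. RD22, a dehydration-responsive gene, was at 222 and 191 CPM at 9 DAS and at 635 and 605 CPM at 16 DAS in P21 (log2 fold change 1.59), while WT started lower, between 66.6 and 96.2 CPM, and reached between 531 and 671 CPM (difference -1.27, adjusted p = 0.016). The cold- and drought-regulated COR15A was at 131 and 114 CPM and then at 111 and 74.1 CPM in P21, and in WT it rose from between 14 and 39 CPM to between 238 and 280 CPM. RD29A was at 51.7 and 46.7 CPM and then at 84.7 and 47 CPM, and WT rose from between 17 and 29.6 CPM to between 130 and 234 CPM (difference -2.71, adjusted p = 0.031).

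In each of these 3 genes P21 lay above WT at 9 DAS. The same order held for ABF3, an ABA-activated transcription factor, with 150 and 194 CPM at 9 DAS in P21 against 42.9 to 73.7 CPM in WT. RD26, a NAC factor, was at 5.86 and 3.2 CPM and then at 44.8 and 30.4 CPM in P21 (log2 fold change 3.04, adjusted p = 3.8e-05) and NCED3, of ABA synthesis, rose as well (2.18).

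Of 20 jasmonate genes 3 rose and 6 fell in P21, where in WT 8 rose and 3 fell. LOX2, a lipoxygenase of jasmonate synthesis, was at 466 and 635 CPM and then at 75.9 and 86.7 CPM (log2 fold change -2.76, adjusted p = 0.0044), with a fitted change of -0.19 in WT, and the cyclase AOC2 fell (-1.94). The change was more negative in P21 than in WT by the test for 2 of the 20 genes, and LOX2 was not among them. LOX4, at 1.03 and 0.635 CPM and then 17.1 and 9.84 CPM (3.93), JAZ9 (2.37) and JAZ6 (0.89) rose. Of 12 salicylic acid and defence genes 2 rose and 3 fell. PBS3, of salicylic acid synthesis, was at 3.1 and 8.25 CPM and then at 1.32 and 0.307 CPM (-2.88, adjusted p = 0.016), and ICS1 of the same pathway fell (-1.06). GSTF6 (-4.02) and GSTF7 (5.25) are near-identical glutathione transferase genes called in opposite directions, and their division of reads is uncertain. PR1 was at 0.

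Of 16 nitrate genes tested 9 rose and none fell (median 1.03), against 9 and 1 in WT (1.36). The nitrate reductase NIA2 was at 145 and 254 CPM at 9 DAS and at 2291 and 1881 CPM at 16 DAS (log2 fold change 3.39 with an SE of 0.58, adjusted p = 0.0013), and NIA1 at 31 and 37.5 CPM and then at 194 and 263 CPM (2.74, adjusted p = 0.039). LBD39, a nitrate-responsive repressor, was at 4.82 and 4.76 CPM and then at 92.6 and 87.3 CPM (4.22, SE 0.39, adjusted p = 4.4e-07). Here P21 began below WT, which lay between 27.2 and 31.7 CPM at 9 DAS, and ended within the WT range of 64.5 to 93.1 CPM (difference 2.73, adjusted p = 0.0055).

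Among 19 sugar and dark response genes 8 rose and 2 fell (median 1.63). BAM3, a plastid beta-amylase, was at 28.6 and 88.9 CPM and then at 875 and 930 CPM (log2 fold change 3.94, adjusted p = 0.0034), and the sucrose phosphate synthase SPS4F at 29.3 and 96.8 CPM and then at 516 and 484 CPM (2.98). Sucrose export genes rose less than in WT or fell. SWEET11, a sucrose efflux carrier, was at 42 and 47.9 CPM and then at 243 and 201 CPM in P21 (2.30, adjusted p = 3.8e-07) with 4.27 in WT (difference -1.97, adjusted p = 0.0015). SWEET12 was at 20.7 and 35.6 CPM and then at 12.3 and 8.3 CPM (-1.48, adjusted p = 0.0014), where WT rose by 1.25 (difference -2.73, adjusted p = 0.0017), and the phloem loader SUC2 rose by 1.63 with a difference of -1.31.

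Of 21 glucosinolate genes, for the sulphur-containing defence compounds of this family, 8 rose and none fell in P21 (median 1.1), whereas in WT all 21 rose (median 2.65). For 6 genes the change was more negative in P21 than in WT. MYB28, the regulator of the aliphatic branch, was at 65.5 and 89.2 CPM and then at 101 and 98.1 CPM in P21 (log2 fold change 0.36, not called) with 1.62 in WT (difference -1.25), and FMOGS-OX1, a side-chain oxygenase, rose by 1.80 with a difference of -1.75.

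Of 20 anthocyanin and flavonoid genes 6 fell and 1 rose in P21 (median -0.81), 5 fell and 4 rose in WT (0.89), and 9 rose and none fell in P10 (1.61). The fall was at the late steps: beside DFR, LDOX and UF3GT it included their regulator TT8, at 10.7 and 25.7 CPM at 9 DAS and at 0.439 and 0.922 CPM at 16 DAS (log2 fold change -4.58). AT5MAT, which fell too, is not a member of this list. CHS, chalcone synthase at the first step, was at 357 and 818 CPM and then at 402 and 578 CPM (-0.26), so its days overlapped. The gene that rose was PAL2 (2.18), of the general phenylpropanoid pathway. In each of these late genes replicate 3 lay above replicate 2 at 9 DAS in P21. Without that replicate the list median was -0.16, and without 16 DAS replicate 3 it was -1.98.

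Of 21 iron and copper genes 5 rose and 4 fell (median 0.37), against 9 and 2 in WT and 14 and 2 in P10 (1.69). BHLH38, a regulator of iron uptake, was at 370 and 458 CPM and then at 18.9 and 13.2 CPM (log2 fold change -4.70, SE 0.71, adjusted p = 0.00069), with fitted changes of -1.13 in WT and 2.32 in P10. Its relative BHLH39 was at 185 and 210 CPM and then at 14.9 and 7.99 CPM (-4.14). IRT1, the iron transporter, was at 0.689 and 4.13 CPM and then at 0 in both libraries, at least 4.44-fold lower, and NAS3, a nicotianamine synthase, was at 0 in both libraries and then at 3.07 and 7.38 CPM, at least 10.5-fold higher. CSD2, a copper and zinc superoxide dismutase of the plastid, rose from 17.2 and 17.8 CPM to 55.3 and 107 CPM (2.22).

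**Figure D5:**
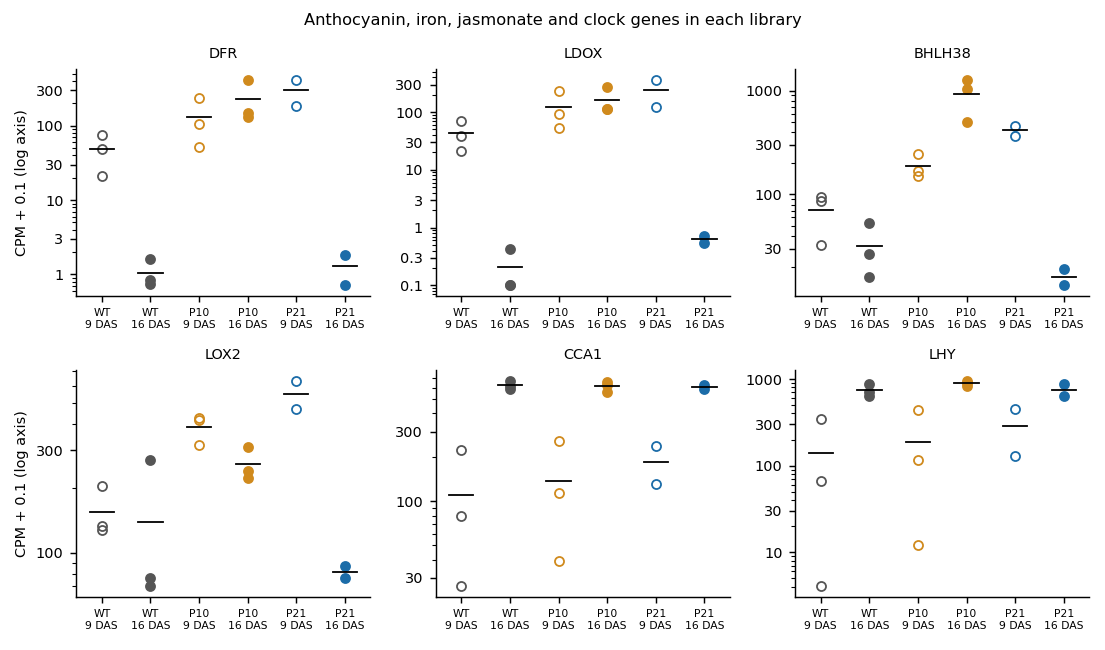
CPM plus 0.1 (vertical log axis) of DFR, LDOX, BHLH38, LOX2, CCA1 and LHY in each library of WT, P10 and P21, with open points at 9 DAS, filled points at 16 DAS and bars at the group mean. DFR and LDOX fell in P21 and WT and not in P10, BHLH38 fell in P21 from 370 and 458 to 18.9 and 13.2 CPM, and the 9 DAS points of CCA1 and LHY are spread widely.

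Clock genes depend on the hour of harvest, which the sources used here do not give for the single libraries. Of 22 tested 3 rose and 2 fell in P21, against 6 and 4 in WT. A fit of the P21 libraries alone called 8 higher and 4 lower. CCA1, a morning-phased repressor, was at 132 and 241 CPM and then at 589 and 628 CPM (log2 fold change 1.71, adjusted p = 0.18), and LHY at 128 and 451 CPM and then at 631 and 867 CPM (1.37, adjusted p = 0.53). Neither passed the test, whose spread is shared over all 16 libraries, although the days did not overlap. PRR9 rose from 3.45 and 4.13 CPM to 33.4 and 45.8 CPM (3.38, adjusted p = 0.0033) and LNK1 rose (1.18), while ELF3 fell from 38.6 and 34 CPM to 7.46 and 13.8 CPM (-1.72). WT at 9 DAS ranged from 3.95 to 344 CPM in LHY and from 27.9 to 1324 CPM in GRP7, so clock levels differed widely within 1 group, and their part in the other results was not tested. The evening element AAAATATCT was present in 30.4% of the clock promoters against 2.4% of all.

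Among markers of single cell types, 3 of 7 mesophyll markers rose, with GLDP1, a subunit of glycine decarboxylase, at 1069 and 2101 CPM and then 4360 and 4032 CPM (log2 fold change 1.40) and CA1 at 2668 and 3212 CPM and then 5727 and 5533 CPM (0.94). Of 8 vascular markers 3 rose, among them the phloem regulator APL (1.13). Of 6 trichome genes NOK (-2.80) and GL2 (-2.56) fell, and TRY, an inhibitor of trichome fate, was at 0.345 and 0.635 CPM and then at 6.14 and 7.99 CPM (3.73). The root list had 1 call, SCR (0.78), at 32.7 and 54.3 CPM and then 60.6 and 88.5 CPM, a gene that leaves also express. Of 16 genes of vegetative phase and flowering time 2 rose, SNZ (1.59) and SPL4 (1.33).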

How the data were processed

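RNA of the first pair of leaves was sequenced as paired ends after stranded mRNA library preparation. The labels give 18 libraries, of which 16 have values. The authors trimmed and mapped the reads in CLC Genomics Workbench v.6 with default settings to TAIR10. The series' design text states that reads of 2 lanes were combined, the methods name a single lane, and each column names 1 lane, which is another in P21 9 DAS replicate 2 than in all other libraries. Which reads of it were counted was not settled. Whether strand was used in counting is not given in the sources used here, so reads of overlapping or antisense genes cannot be told apart. For each of 28642 genes the deposited tables hold 2 counts over the gene region, of uniquely mapped reads and of all mapped reads. The authors' RPKM values scale the latter to gene length and mapped reads. A total of 405 columns with values of single samples was not used, among them exon and intron reads and normalized values. Columns with the authors' comparisons of each line with WT (fold changes, p-values, FDR) were not used. The WT values are given in 2 tables and were identical in 6 of 6 libraries.

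Unique gene reads, joined on the gene identifier, were fitted in R 4.3.3 with edgeR 4.0.16 (TMM factors, filterByExpr, robust quasi-likelihood, 1 mean per genotype and day over all 16 libraries), which left 16499 genes and 10 residual degrees of freedom, with a biological coefficient of variation of 18.8%. The Benjamini-Hochberg adjustment ran over all genes. The changes of P21, WT and P10 between the days and the differences between these changes were tested. On counts simulated for the P21 comparison, 48 and 47 of 50 genes changed by a log2 of 2 and of -2 were called, and 24 and 19 of 50 changed by 1 and by -1. The changed genes were drawn only from those expected above about 50 reads in a library. They were also a far smaller share of all genes than was called in P21. The rates therefore do not describe genes with fewer reads, nor data in which as many genes change as here. The correlation of same-numbered replicates' deviations in P21 was 0.07. With 2 replicates a day both pairs give the same value, so it is a single number.

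Members and lists, 33 of processes and 7 of markers, were chosen with earlier results of these data known. Of the symbols in them 10 had no locus. Named were PID, the 12 largest called rises and falls with at least 50 reads on average and no overlap between the days, up to 3 called genes in each direction per list, and the 5 largest differences in each direction from WT and from P10. All other genes named are list members singled out after their values were seen. A gene at 0 on 1 day was bounded with 3 reads over the libraries of that day. Coordinates of genes are those of the files. Promoters were read from RefSeq's TAIR10.1 genome, where 28009 of the genes were matched by locus. Intervals and floors cover counting error only. The alternatives comprised other scaling factors, filters, tests (DESeq2 1.42.0, limma 3.58.1), counts, thresholds, a replicate block and single libraries left out. A fit on the libraries with the second index of P21 was chosen after seeing the data. One list member is not reported here.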

Additional observations from a re-analysis of the deposited data

Results flagged for a closer look

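Differences between the change in P21 and the change in another genotype that passed edgeR's test, among the genes named by rule, are given here on the log2 scale. A positive value is a more positive change in P21 from 9 to 16 DAS.

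In all, 524 genes differed between P21 and WT and 2100 between P21 and P10. Against WT the largest positive differences were those of AT2G05540 (5.44), the proline dehydrogenase gene ERD5 (3.73), ARR7 (3.3), AT2G30600 (3.15) and BT5 (2.88). ERD5 was at 31.7 and 22.5 CPM at 9 DAS and at 29.8 and 20.9 CPM at 16 DAS in P21, with a fitted change of -3.84 in WT. BT5 rose from 9.65 and 11.1 CPM to 231 and 111 CPM (log2 fold change 4.03), with 1.14 in WT. LBD39 (2.73), ASE2, of purine synthesis (1.90), and the ribosomal protein genes AT3G16780 (1.32) and AT1G01100 (1.26) also differed in this direction.

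The most negative differences from WT were those of AT1G80130 (-4.74), PBS3 (-4.31), AT5G42530 (-4.21), COR15A (-3.88), AT4G14020 (-3.60) and BHLH38 (-3.57). Those of PBS3 and BHLH38 were close to the threshold, each with an adjusted p of 0.0499 in edgeR's test. PBS3 was named through its list, without the minimum of 50 reads on average that applied to the largest differences. AT4G14020 was at 32.4 and 42.5 CPM and then at 39.5 and 28.3 CPM in P21, while WT rose from between 3.93 and 8.03 CPM to between 54.8 and 59.8 CPM. HIS1-3 (-3.15), AT1G67865 (-3.11), SWEET12 (-2.73), RD29A (-2.71), SWEET11 (-1.97), FMOGS-OX1 (-1.75), NGA1 (-1.44), SUC2 (-1.31), MYB28 (-1.25) and SMR1 (-1.17) followed.

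Against P10 the largest positive differences were those of AT2G05540 (6.78), BT5 (4.86), the beta-xylosidase gene BXL1 (4.44), DIN10 (4.25) and ASE2 (4.21). DIN10 stood at 178 and 60.6 CPM in P21 at 16 DAS, so its replicates were apart. The most negative were those of UF3GT (-9.26), LDOX (-9.09), DFR (-8.86), BHLH38 (-7.02) and AT5MAT (-6.93). At 9 DAS the P21 libraries differ from those of WT and P10 in the second index, and its part in these differences cannot be told apart from that of the line.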

How the results depend on the processing

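At 2 libraries a day, single P21 libraries and the threshold moved the counts most. Testing against a log2 change of 0.75 (glmTreat) left 1497 genes in P21, 3324 in WT, 2662 in P10, 29 for P21 against WT and 495 for P21 against P10. Leaving out each library in turn gave 2321 to 3997 genes in P21, 5428 to 6052 in WT, 4383 to 5244 in P10, 51 to 579 for P21 against WT and 1196 to 2198 for P21 against P10. The lowest 51 and 1196 came without P21 16 DAS replicate 3, and 318 genes differed from WT without WT 16 DAS replicate 1 or 3. P21 16 against 9 DAS gave 3346 without 9 DAS replicate 3 and 3083 without 16 DAS replicate 2. Deviations of same-numbered P21 replicates correlated at 0.07, a single value. A replicate block gave 3868 genes in P21, 5938 in WT, 5090 in P10, 392 for P21 against WT and 1961 for P21 against P10.

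DESeq2 called 3693 genes in P21 and a fit of the P21 libraries alone 4114. With library size alone 4969 were called, and the share of higher calls was 22.3%, as with limma at 22% to 23.2%, where the median of all genes was -0.33 to -0.40, so directions of lists near 0 depend on the scaling. No call of a named gene reversed its direction under any alternative. List medians did change sign beyond their spread between replicates. This held for 8 lists with library size alone and for 6 to 8 with limma. It also held for 2 with the P21 libraries alone and 1 with only the libraries of the P21 second index. Without P21 16 DAS replicate 3 it held for 2 and without 16 DAS replicate 2 for 1. Over the named genes and all alternatives, 6344 values kept their call or lack of one, 575 lost their call and 23 gained one. Direction was compared only for genes called in the reported fit. Up to 46 named calls were lost when 1 P21 library was left out and 63 with glmTreat.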

Other observations

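HSP70 had the largest rise among genes with at least 50 reads on average and no overlap between the days. For that reason 52 tested genes were examined whose product name in the annotation names a heat shock protein or an HSP20-like chaperone. The group was chosen after its values were seen. Of these, 15 were higher and 3 lower at 16 than at 9 DAS in P21, with a median log2 fold change of 0.30. Over all genes 12.7% were higher and 11% lower. In WT 19 of the 52 were higher and 6 lower, with a median of 0.40, and over all genes 18.6% were higher and 17.3% lower.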
